A study of Mus musculus with 4 samples.

Results

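The immediate early and dissociation stress genes described here are 35 genes named by symbol: the AP-1 subunits Fos, Fosb, Fosl2, Jun, Junb and Jund, the related factors Atf3, Maff, Cebpb and Cebpd, the Egr factors Egr1, Egr2 and Egr3, the Klf factors Klf2, Klf4 and Klf6, the nuclear receptors Nr4a1, Nr4a2 and Nr4a3, the feedback genes Dusp1, Socs3, Nfkbia, Zfp36, Btg2 and Ppp1r15a, the further early genes Ier2, Ier3, Gadd45b, Gadd45g, Rhob and Myc, and the heat shock genes Hspa1a, Hspa1b, Dnajb1 and Hsph1. All probe sets annotated to these symbols were taken, which gave 67 of the 45037 probe sets of the table. All 35 genes were found, 17 with 1 probe set and 18 with several, up to 6 per gene. Of the 67 probe sets 59 reached an intensity of 50 on at least 2 of the 4 arrays and were tested, and each gene kept at least 1 of them. The 8 others stayed at 73.4 or less in every pool. Where values are given below as a pair for Cyc and a pair for Wt cells, they are intensities of 1 probe set in the pools of replicates 1 and 2, in that order. Each gene is represented below by its brightest tested probe set, and all genes tested, 10315 in number, serve as the background.

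Gene expression was measured on Affymetrix arrays in Sca-1 positive cells, taken from the heart with magnetic beads that bind the surface protein Sca-1 and used fresh. Wt cells came from healthy wildtype littermates of the FVB strain aged 6 weeks. Cyc cells came from double-transgenic animals of the same strain and age with heart failure, in which the αMHC promoter, active in cardiomyocytes, drives CyclinT1 and Gαq. The transgenes are thus not directed at the sorted cells themselves, and mice of either sex were used. There were 2 arrays per genotype, numbered replicate 1 and 2, and each array held RNA of 1 pool of cells from several hearts. The labels name 2 independent experiments without tying the numbers to them.

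Immediate early genes are transcribed within minutes of a stimulus and need no new protein synthesis. Serum response factor with its partners and CREB stand ready on many of their promoters and are switched on by kinases such as ERK and p38, while NF-κB waits in the cytoplasm until its inhibitor is destroyed. Many of the products are transcription factors, and others end the response by dephosphorylating kinases, retaining NF-κB or destroying messenger RNA. Enzymes, warmth and shear during the preparation of single cells from solid tissue are known to start this program, together with heat shock genes under the control of HSF1, so that their level in sorted cells need not be their level in the tissue.

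All 4 pools held clear signal of these genes, and the median difference between the genotypes was small. Single genes ran from a log2 difference Cyc minus Wt of -0.997 (Hsph1, standard error 0.61) to 1.13 (Egr2, standard error 0.24). The mean over the pools was 1000 or more at 26 of the 35 genes. In Cyc against Wt cells 1 gene, Egr2, was expressed at higher level, which is 2.86% of the 35 genes against 0.921% of all genes. None was expressed at lower level, against 0.126% of all genes. These calls use the thresholds of the study, a change of at least 2-fold and an unadjusted p under 0.05, here by limma on log2(intensity + 16). No adjusted p was under 0.05 in this comparison, where 412 of 20680 probe sets had an unadjusted p under 0.05. The methods' t-test, which the study names for pairwise comparisons in general and not for the arrays, was also run on these values. It too called Egr2 higher and no gene of the 35 lower. By limma Egr2 was the one gene of the 35 with an unadjusted p under 0.05. The median log2 difference Cyc minus Wt was 0.04 over the 35 genes and 0.02 over all genes. The ratio of the highest to the lowest pool had a median of 1.57 over the 35 genes and of 1.52 over all genes. Among genes with a mean of 1000 or more it was 1.43 over 26 of the 35 genes and 1.36 over all such genes. The 16 added before log2 makes fold changes of dim genes appear smaller than they are, and the p-values measure only the spread between these pools.

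**Figure D1:**
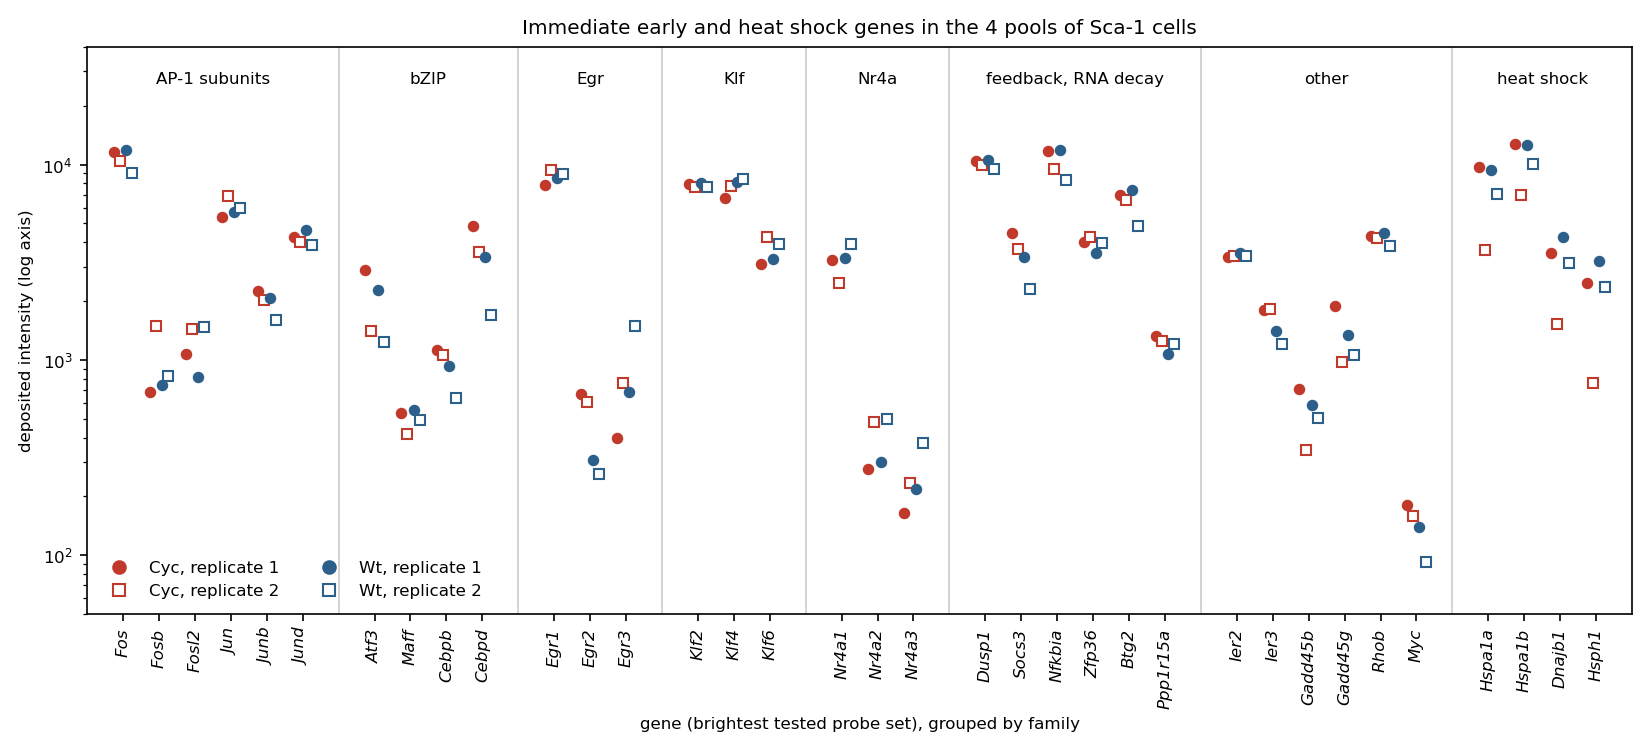
Deposited intensity (log axis) of the 35 genes in the 4 pools, with 1 point per pool and genes grouped by family. At Egr2 both Cyc pools (red) lie above both Wt pools (blue), and at the 4 heat shock genes the Cyc pool of replicate 2 (open red square) lies lowest.

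Facts of the whole table bear on these values. Poly-A control transcripts, which are added before labelling, read 258.8 (Cyc) and 231.9 (Wt) in the median in replicate 1, against -0.9 (Cyc) and 0.3 (Wt) in replicate 2. All genes together were brighter in replicate 2, with a median log2 difference of 0.23 over all genes and of 0.12 over those with a mean of 1000 or more. Of the markers fixed for each cell type, all 8 of endothelium and all 8 of fibroblasts reached 50 in every pool, whereas neutrophil markers reached 50 at no more than 1 gene in any pool. The pools stood apart in airway markers. Their intensities summed to 30760 in the Cyc pool of replicate 2, 6254 in the Wt pool of replicate 1, 781.8 in the Cyc pool of replicate 1 and 482.6 in the Wt pool of replicate 2. In bulk RNA fewer cells of a type and less RNA per cell cannot be told apart.

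Promoter sequences are shown for Egr2, the gene that passed, with Zfp36 beside it, and for 3 heat shock genes that were lowest in the same pool. RefSeq windows of 300 bases, 250 before and 50 after the start of a transcript, were matched by symbol for 30 of the 35 genes, on build GRCm38.p6. Cebpd, Egr1, Egr3, Ier2 and Myc had none. The letters of the serum response element, the DNA site of serum response factor, were searched on both strands and occurred in windows of 2 of the 30 genes, Egr2 and Zfp36, and of 1.81% of all 27025 genes with a window. Egr2 has 5 windows, 4 of which hold the site, and the one shown is chr10:67537619-67537918 on the plus strand. The Zfp36 window is chr7:28379179-28379478 on the minus strand and is shown as that of the other gene with the site. Capitals mark the site, at 72 to 63 bases before the start in Egr2 and at 58 to 49 bases before it in Zfp36.
Egr2: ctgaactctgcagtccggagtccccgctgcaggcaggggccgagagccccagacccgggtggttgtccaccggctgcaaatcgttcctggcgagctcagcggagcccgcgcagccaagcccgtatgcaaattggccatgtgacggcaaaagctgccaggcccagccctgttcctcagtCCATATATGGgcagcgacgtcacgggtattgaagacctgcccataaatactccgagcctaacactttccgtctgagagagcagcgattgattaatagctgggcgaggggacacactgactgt
Zfp36: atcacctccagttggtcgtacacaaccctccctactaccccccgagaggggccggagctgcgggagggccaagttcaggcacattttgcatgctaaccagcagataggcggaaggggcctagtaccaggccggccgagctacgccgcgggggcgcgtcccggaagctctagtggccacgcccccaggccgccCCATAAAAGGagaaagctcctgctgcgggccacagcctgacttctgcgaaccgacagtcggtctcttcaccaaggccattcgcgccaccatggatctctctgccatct

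Heat shock elements, to which HSF1 binds, were searched on both strands as GAANNTTC or TTCNNGAA. Windows of 6 of the 30 genes held at least 1 such match (Egr2, Fosl2, Hspa1a, Hspa1b, Hsph1 and Jun), as did those of 17% of all genes, while neither Dnajb1 window did. The windows of Hspa1a (chr17:34972107-34972406), Hspa1b (chr17:34959189-34959488) and Hsph1 (chr5:149636266-149636565), all on the minus strand, are given below because these genes were low in the same pool. Capitals mark the matches. The Hspa1a and Hspa1b windows were identical at 296 of 300 positions, with the match at 104 to 97 bases before the start in both. In Hsph1 a match lies at 54 to 47 bases before the start, and 2 more lie after it and overlap each other.
Hspa1a: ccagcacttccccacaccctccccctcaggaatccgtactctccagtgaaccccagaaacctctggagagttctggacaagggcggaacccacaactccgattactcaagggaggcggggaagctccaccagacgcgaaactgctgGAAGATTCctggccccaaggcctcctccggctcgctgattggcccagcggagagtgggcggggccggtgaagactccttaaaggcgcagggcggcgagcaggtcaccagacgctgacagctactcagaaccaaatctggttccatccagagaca
Hspa1b: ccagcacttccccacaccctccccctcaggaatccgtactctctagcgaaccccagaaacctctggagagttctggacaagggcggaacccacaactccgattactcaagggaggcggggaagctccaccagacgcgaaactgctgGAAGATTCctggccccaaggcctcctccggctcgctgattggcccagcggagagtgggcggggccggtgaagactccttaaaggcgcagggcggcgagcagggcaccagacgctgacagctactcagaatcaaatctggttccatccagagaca
Hsph1: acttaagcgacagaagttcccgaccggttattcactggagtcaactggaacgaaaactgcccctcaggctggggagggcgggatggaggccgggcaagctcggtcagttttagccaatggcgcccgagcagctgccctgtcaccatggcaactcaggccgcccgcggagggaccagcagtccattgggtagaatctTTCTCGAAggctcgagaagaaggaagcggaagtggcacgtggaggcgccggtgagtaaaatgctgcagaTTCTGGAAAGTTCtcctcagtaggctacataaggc

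Other letters were searched in the same way. The cyclic AMP response element TGACGTCA, bound by CREB, occurred in Btg2, Dusp1, Maff and Ppp1r15a and in 2.03% of all genes with a window. Its core TGACG, which the full element contains, occurred in 16 of the 30 genes and in 23% of all genes. The AP-1 site TGACTCA occurred in none of the 30 genes and in 5.95% of all genes, and the TATA box TATAAA in 8 of the 30 genes and in 15.7% of all genes. A match describes the letters in these windows and is no evidence of binding.

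The AP-1 subunits, which pair with each other to bind DNA, were read in every pool and none was called in either comparison. Fos, the classic early subunit, read 11645 (replicate 1) and 10368 (replicate 2) in Cyc against 11864 and 9036 in Wt cells. The pools of replicate 1 were the brighter ones in both genotypes, and Cyc and Wt overlapped (log2 difference 0.09, standard error 0.26). Jun, its main partner, read 5408 and 6894 in Cyc against 5738 and 6010 in Wt cells, again with overlap. Junb (1603 to 2260 over the 4 pools) and Jund (3853 to 4611) varied little.

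Fosb, a subunit that accumulates after repeated stimulation, was the exception among the AP-1 genes. It read 688 (replicate 1) and 1483 (replicate 2) in Cyc against 741.6 and 829 in Wt cells, so that 1 Cyc pool stood above the other 3. Its log2 difference Cyc minus Wt was -0.11 within replicate 1 and 0.83 within replicate 2, and the fitted value of 0.36 (standard error 0.42) did not pass. Fosl2, which encodes Fra-2, read 1069 and 1434 in Cyc against 812.4 and 1467 in Wt cells and was higher in replicate 2 in both genotypes.

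The related bZIP factors Atf3, Maff, Cebpb and Cebpd were dimmer in replicate 2 than in replicate 1 at their brightest probe sets. The second Cebpd probe set differed by 0.04 on the log2 scale, against -0.71 at the brightest. Atf3, a stress-induced repressor, read 2896 (replicate 1) and 1407 (replicate 2) in Cyc against 2273 and 1239 in Wt cells. Both pools of replicate 2 lay below both pools of replicate 1, by a log2 difference of -0.95 (standard error 0.20), just short of 2-fold (limma, adjusted p = 0.0896). It passed the thresholds after quantile normalization (log2 difference -1.13) and after scaling the arrays to 1 median (-1.30). The genotypes overlapped at Atf3, and Maff, a small Maf protein, ranged from 417.8 to 553.5 over the 4 pools.

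Cebpb and Cebpd encode C/EBP factors of the acute phase response, and at both genes the Cyc pools lay above the Wt pools without passing the thresholds. Cebpd read 4837 and 3549 in Cyc against 3364 and 1692 in Wt cells. The higher Wt pool nearly reached the lower Cyc pool, and the log2 difference was 0.79 (standard error 0.42, limma, adjusted p = 1), with 0.52 within replicate 1 and 1.06 within replicate 2. Without the Wt pool of replicate 1 it passed, at 1.28, and without the other Wt pool it was 0.30. Cebpb read 1116 and 1057 in Cyc against 930.9 and 637 in Wt cells (log2 difference 0.49, standard error 0.28). At the dimmer probe set of either gene the difference had the same sign, with 0.54 for Cebpd and 0.32 for Cebpb.

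The 3 Egr genes, zinc finger factors induced through serum response factor, went 3 ways. Egr1 was bright and nearly level, at 7824 and 9334 in the Cyc pools of replicates 1 and 2 and 8544 and 8895 in the Wt pools. Egr2, known for its role in Schwann cells and in the restraint of lymphocyte activation, was the one gene of the 35 that passed. Its intensity was 665.7 and 608.1 in Cyc, compared with 306.1 and 259.1 in Wt cells. The groups were well apart and the pools of a genotype close together, giving a mean of 637 ± 40.7 in Cyc against 283 ± 33.2 in Wt cells (SD, n = 2 pools each).

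Egr2 rose by a log2 difference of 1.13 in Cyc cells (standard error 0.24, 95% confidence interval from 0.51 to 1.75; limma, adjusted p = 1). It was past 2-fold within each replicate number, at 1.08 in replicate 1 and 1.18 in replicate 2. No other gene of the 35 was 2-fold higher within replicate 1 (1.11% of all genes), and within replicate 2 Cebpd also was (3.84% of all genes). The other Egr2 probe set read 280.0 and 285.8 in Cyc against 195.0 and 143.4 in Wt cells. The groups did not overlap there either, and the log2 difference of 0.71 lay under 2-fold. The call was lost with the mean of both probe sets (0.92) and without the Wt pool of replicate 2 (1.02, at an unadjusted p above the threshold). Among the cell type markers 1 of 8 tested fibroblast genes (Col1a1) was also called higher in Cyc cells. So were 2 of 7 tested genes of smooth muscle and pericytes (Kcnj8 and Abcc9). Of 10 tested cardiomyocyte genes 2 (Mb and Myl2) were called lower, and none of the 8 endothelial genes either way. Over all genes 0.921% were called higher and 0.126% lower. The difference was above 0 at 5 of the 8 fibroblast genes, 7 of the 7 of smooth muscle and pericytes and 1 of the 10 of cardiomyocytes. It was above 0 at 0 of the 8 endothelial genes, 4 of the 4 tested macrophage genes and 6 of the 6 tested airway genes. The macrophage median was -0.18 within replicate 1 and 2.05 within replicate 2, and the airway median was -3.75 and 6.79. The part of these cell types in the Egr2 value was not tested.

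Egr3, the third member, ran the other way. It read 398.5 (replicate 1) and 759.0 (replicate 2) in Cyc against 681.7 and 1488 in Wt cells. Within each replicate number the Cyc pool lay below the Wt pool, by -0.75 and -0.96 on the log2 scale, yet the Cyc pool of replicate 2 lay above the Wt pool of replicate 1. The fitted difference of -0.85 (standard error 0.52) was under 2-fold and did not pass. With the replicate number as a block the standard error was 0.19, and the difference did not pass because it was still under 2-fold. Without the Cyc pool of replicate 2 the difference was -1.31, past 2-fold. Between replicate numbers Egr3 differed by 1.01 (standard error 0.41; limma, adjusted p = 0.186), which passed the thresholds with the genotype as a block. Its second probe set, at 24.5 or less in every pool, was not tested.

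**Figure D2:**
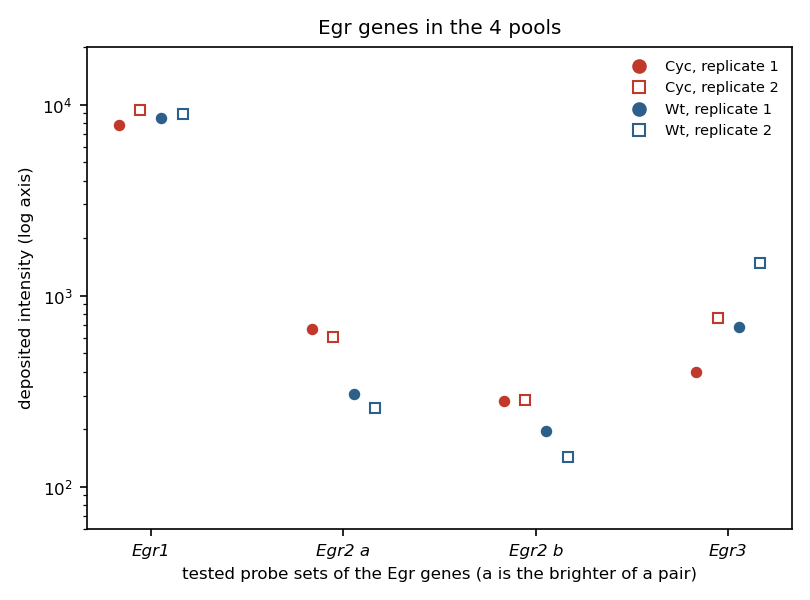
Deposited intensity (log axis) of the 4 tested Egr probe sets, with 1 point per pool, Cyc in red, Wt in blue, replicate 1 filled and replicate 2 open. Egr1 is nearly level, both Egr2 probe sets are higher in both Cyc pools, and Egr3 is higher in the Wt pool of each replicate number.

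The Klf factors, which in endothelium respond to flow, were bright and among the most even genes. Klf2 read 7957 and 7697 in Cyc against 8078 and 7667 in Wt cells, a ratio of highest to lowest of 1.05. Klf4 read 6756 and 7742 in Cyc against 8112 and 8415 in Wt cells. Here both Cyc pools lay below both Wt pools, by a log2 difference of -0.19 (standard error 0.23) that did not pass, and the dimmer Klf4 probe set gave -0.30. Klf6 ranged from 3081 to 4240, was higher in replicate 2 in both genotypes, and its 5 tested probe sets gave differences Cyc minus Wt from -0.30 to 0.09.

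The Nr4a genes encode nuclear receptors without a known ligand that follow cyclic AMP and calcium signals. Nr4a1 read 3241 (replicate 1) and 2481 (replicate 2) in Cyc against 3320 and 3906 in Wt cells. Both Cyc pools were the lower ones, but within replicate 1 by just -0.03 on the log2 scale against -0.65 within replicate 2, and the fitted value of -0.34 (standard error 0.26) did not pass.

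Nr4a2 and Nr4a3 differed by replicate number instead. Nr4a2 read 276.3 and 481.7 in Cyc against 300.0 and 497.7 in Wt cells. Replicate 2 was higher in both genotypes by nearly the same amount, and the log2 difference of 0.73 (standard error 0.16; limma, adjusted p = 0.0915) stayed under 2-fold, while the 4 tested Nr4a2 probe sets gave values from 0.02 to 0.79. Nr4a3 read 163.3 and 232.9 in Cyc against 218.7 and 373.2 in Wt cells, higher in replicate 2 and, within each number, lower in Cyc (-0.39 and -0.65).

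The feedback genes, which shut the response down, were high and mostly level. Dusp1, a phosphatase of p38 and JNK, read 10403 and 9976 in Cyc against 10562 and 9483 in Wt cells, and Zfp36, which marks messenger RNA for decay, read 4015 and 4231 in Cyc against 3514 and 3970 in Wt cells. Nfkbia, the inhibitor that holds NF-κB in the cytoplasm, read 11739 and 9444 in Cyc against 11941 and 8291 in Wt cells. It was thus lower in replicate 2 in both genotypes, by -0.42 on the log2 scale (standard error 0.17). Btg2, an antiproliferative partner of deadenylases, read 7007 and 6583 in Cyc against 7398 and 4852 in Wt cells, with the Wt pool of replicate 2 below the rest, and Ppp1r15a, which restores translation after stress, ranged from 1077 to 1328.

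Socs3, the feedback inhibitor of JAK and STAT3 signaling, read 4448 (replicate 1) and 3706 (replicate 2) in Cyc against 3353 and 2297 in Wt cells. Both Cyc pools were above both Wt pools, and the log2 difference was 0.55 (standard error 0.30), under 2-fold. Its 3 probe sets gave values from 0.40 to 0.55. The median difference over the 6 feedback genes was 0.16, and none of the 6 passed.

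Among the further early genes Ier2, a nuclear early response protein, was the most even of all 35, at 3358 and 3402 in Cyc and 3516 and 3389 in Wt cells. Rhob, a small GTPase, was next to level, at 3846 to 4468. Ier3, a regulator of apoptosis, read 1796 and 1828 in Cyc against 1401 and 1205 in Wt cells, and Myc, a driver of growth, 180.9 and 158.9 in Cyc and 138.5 and 92.6 in Wt cells. At both the Cyc pools lay above the Wt pools, with log2 differences of 0.48 (standard error 0.23) for Ier3 and 0.52 (standard error 0.28) for Myc, and neither passed.

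The stress sensors Gadd45b and Gadd45g, which bind a kinase upstream of p38, were lowest in the Cyc pool of replicate 2. Gadd45b read 710.9 (replicate 1) and 346.3 (replicate 2) in Cyc against 585.7 and 505.7 in Wt cells. Gadd45g read 1883 and 975.6 in Cyc against 1340 and 1062 in Wt cells. In both genes the Cyc pool was higher than the Wt pool in replicate 1 and lower in replicate 2, and the fitted differences of -0.13 and 0.18 (standard errors 0.40 and 0.39) did not pass.

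The heat shock genes differed most between pools, with a median ratio of the highest to the lowest pool of 2.71 over the family. Hspa1a, an inducible Hsp70, read 9688 (replicate 1) and 3659 (replicate 2) in Cyc against 9416 and 7074 in Wt cells. Hspa1b, its near-identical neighbour, read 12685 and 6992 in Cyc against 12611 and 10120 in Wt cells. In replicate 1 the genotypes were equal to within a few percent, and the Cyc pool of replicate 2 stood below the other 3. Since the genes are so alike, a probe set of one may read the other, and Hspa1a and Hspa1b are uncertain as separate measurements.

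The co-chaperones had the same lowest pool. Dnajb1, an Hsp40 that feeds substrates to Hsp70, read 3536 and 1534 in Cyc against 4239 and 3121 in Wt cells. Hsph1, an Hsp110 that exchanges the nucleotide of Hsp70, read 2463 and 762.5 in Cyc against 3202 and 2372 in Wt cells. It had the widest span of the 35 genes, from 3202 down to 762.5. Within replicate 2 these 2 genes were at least 2-fold lower in Cyc, which holds for 0.271% of all genes, by -1.02 for Dnajb1 and -1.62 for Hsph1. Within replicate 1 no gene of the 35 was 2-fold lower (1.47% of all genes), with -0.26 for Dnajb1 and -0.38 for Hsph1.

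With the 4 pools in 1 fit without a block no heat shock gene passed at its brightest probe set in Cyc against Wt. Hsph1 had a log2 difference of -0.997 (standard error 0.61), Dnajb1 of -0.64 (0.47), Hspa1a of -0.45 (0.53) and Hspa1b of -0.26 (0.37). The values turned on single pools. Without the Cyc pool of replicate 1 the first 3 passed, at -1.83 for Hsph1, -1.24 for Dnajb1 and -1.15 for Hspa1a. Without the Cyc pool of replicate 2 they were -0.16, -0.04 and 0.25. With the replicate number as a block the dimmer Hsph1 probe set, at 942.9 and 275.8 in Cyc and 1384 and 1005 in Wt cells, was called lower in Cyc by -1.18 on the log2 scale. With that block after quantile normalization the brightest Hsph1 probe set was called lower too, by -1.06.

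Both genotypes had less heat shock signal in replicate 2. All 4 genes had both pools of replicate 2 below both pools of replicate 1. This order was found at 8.86% of all genes and at 14.3% of those with a mean of 1000 or more. The median log2 difference of the 4 genes was -0.86. This median was -1.30 in Cyc and -0.42 in Wt cells, a difference that was not tested because 4 arrays leave no residual for it. Over both genotypes the median was -0.87 after quantile normalization and -1.22 after scaling to 1 median. In the fit without a block no gene passed at its brightest probe set, but the dimmer Dnajb1 probe set, at 1955 and 616.2 in Cyc and 1911 and 1242 in Wt cells, was called lower in replicate 2 by -1.13 (limma). With the genotype as a block Hsph1 was called lower in replicate 2 at its brightest probe set (-1.05). After scaling to 1 median Hspa1a (-1.26), Dnajb1 (-1.17) and Hsph1 (-1.40) were called lower, as they were without the Wt pool of replicate 2 (-1.38, -1.33 and -1.86).

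**Figure D3:**
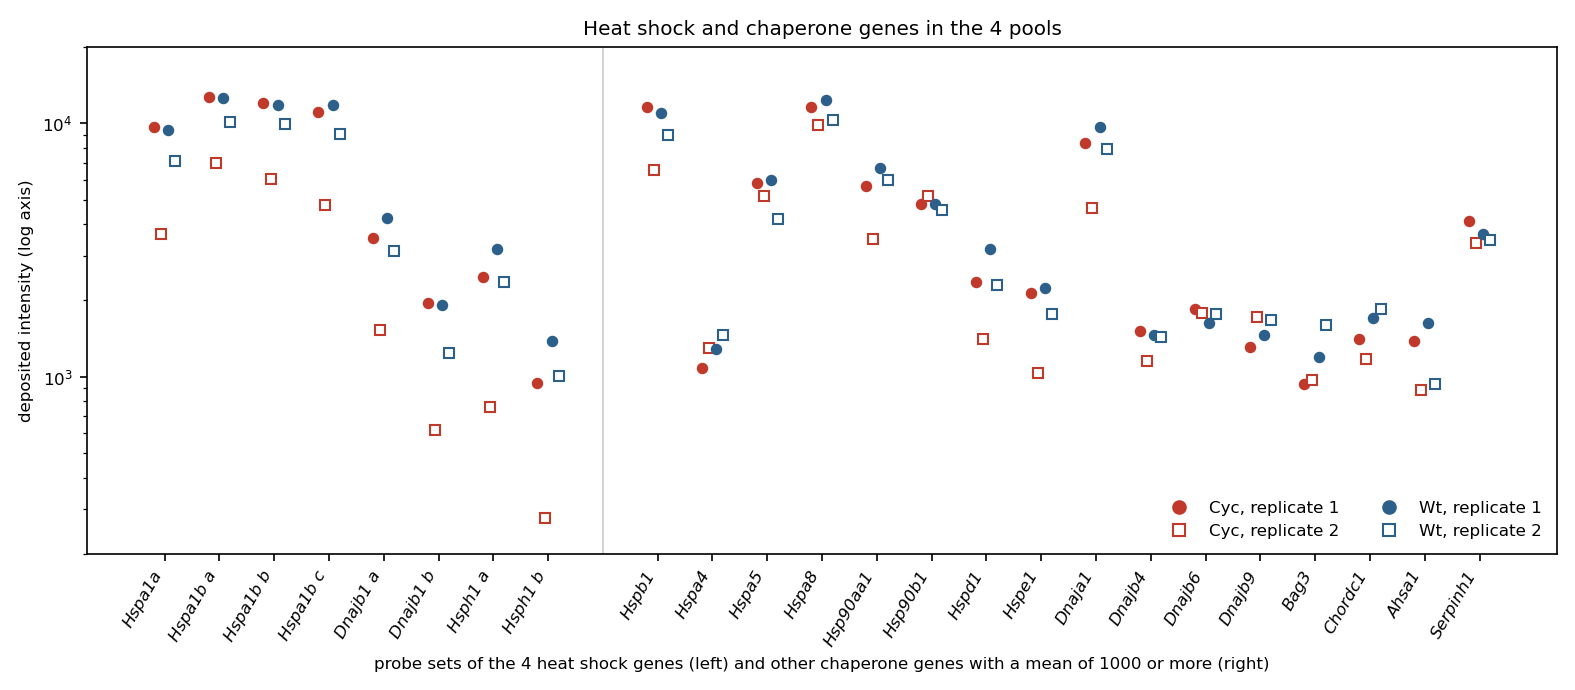
Deposited intensity (log axis) of the 8 tested probe sets of Hspa1a, Hspa1b, Dnajb1 and Hsph1 (left, letters number the probe sets of a gene from the brightest) and of other chaperone genes with a mean of 1000 or more (right), with 1 point per pool. The Cyc pool of replicate 2 (open red square) is lowest at all 8 heat shock probe sets and at part of the other chaperones.

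Other chaperones were read as a separate list. Of its 25 genes 24 were tested and none was called in either comparison by limma, with an unadjusted p under 0.05 at 0 genes in Cyc against Wt and at 2 between replicate numbers. In 12 of these 24 the Cyc pool of replicate 2 was the lowest, as in 8 of the 35 genes and in 8.9% of all genes. Among all genes with a mean of 1000 or more it was the lowest in 13.5%. The following genes were chosen after their values were seen. Hsp90aa1, an inducible Hsp90, read 5657 and 3483 in Cyc against 6669 and 5974 in Wt cells, and Dnaja1, another Hsp40, read 8389 and 4638 in Cyc against 9708 and 7899 in Wt cells. Both were likewise lowest in the Cyc pool of replicate 2, whereas Hsp90b1, a chaperone of the endoplasmic reticulum, was level at 4546 to 5177.

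Other features of the Cyc pool of replicate 2 stood beside its low heat shock values. Of the 8 airway markers 7 reached 50 there, against 3 in the other Cyc pool, 6 in the Wt pool of replicate 1 and 2 in the Wt pool of replicate 2. In the last of these Scgb1a1, a defining airway gene, was at 3.2. Of 8 annotated macrophage markers 7 reached 50 in the Cyc pool of replicate 2 and 1 to 4 in the others, with sums of 1231 against 232.7 to 486.1. Markers of smooth muscle and pericytes summed to 24963 there and to 11086 to 15539 in the others. The whole array was also brighter, with 21444 probe sets at 50 or more there against 18460 to 20200 in the others. The ratio of 3′ to 5′ signal of Actb, a sign of RNA quality, was 1.61 there and 1.76 in the Wt pool of replicate 2. In replicate 1 it was 1.435 (Cyc) and 1.27 (Wt). The same ratio of Gapdh was 0.945 in both pools of replicate 2, against 0.879 (Cyc) and 0.804 (Wt) in replicate 1. The part of any of these in the heat shock values was not tested.

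Over all families the pools of 1 replicate number were set against those of the other. The 3′ to 5′ ratios given above also differed by number, and their part in this comparison was not tested. No gene of the 35 was called higher in replicate 2 (3.37% of all genes) or lower (0.184% of all genes), although 5930 probe sets had an unadjusted p under 0.05 by limma and 1 an adjusted p under 0.05. Both pools of replicate 2 lay above both of replicate 1 at 8 of the 35 genes, 22.9% against 48.9% of all genes. They lay below at 16 genes, 45.7% against 8.86% of all genes. These 16 were Fos, Junb, Jund, Atf3, Maff, Klf2, Dusp1, Nfkbia, Btg2, Gadd45b, Gadd45g, Rhob and the 4 heat shock genes. The 8 higher ones were Fosb, Fosl2, Jun, Egr1, Egr3, Klf6, Nr4a2 and Nr4a3. Of the 26 with a mean of 1000 or more, 15.4% lay above and 53.8% below, against 41.3% and 14.3% of all such genes. After quantile normalization 8 genes lay above and 19 below, against 22.5% and 31.4% of all genes. After scaling the arrays to 1 median 1 lay above and 27 below, against 18.8% and 37% of all genes. The methods' t-test called none of the 35 genes between replicate numbers, and by limma 6 of them had an unadjusted p under 0.05 (Fosl2, Atf3, Nr4a2, Gadd45g, Hspa1a and Hspa1b).

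The median log2 difference between replicate 2 and 1 was -0.17 over the 35 genes and 0.23 over all genes. Among genes with a mean of 1000 or more it was -0.15 over 26 of the 35 genes and 0.12 over all such genes. By family the median was -0.86 for heat shock, -0.51 for bZIP factors, -0.23 for feedback genes, -0.23 for the further early genes, 0.02 for AP-1, 0.12 for Klf, 0.16 for Egr and 0.60 for Nr4a genes. Scaling to 1 median turned AP-1 to -0.34, Klf to -0.23 and Egr to -0.20, so the direction of these 3 families depends on the scaling. It left the direction of the other families as it was, as did quantile normalization in all 8. In 13 of the 14 genes with several tested probe sets all of them had the same sign in this comparison.

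**Figure D4:**
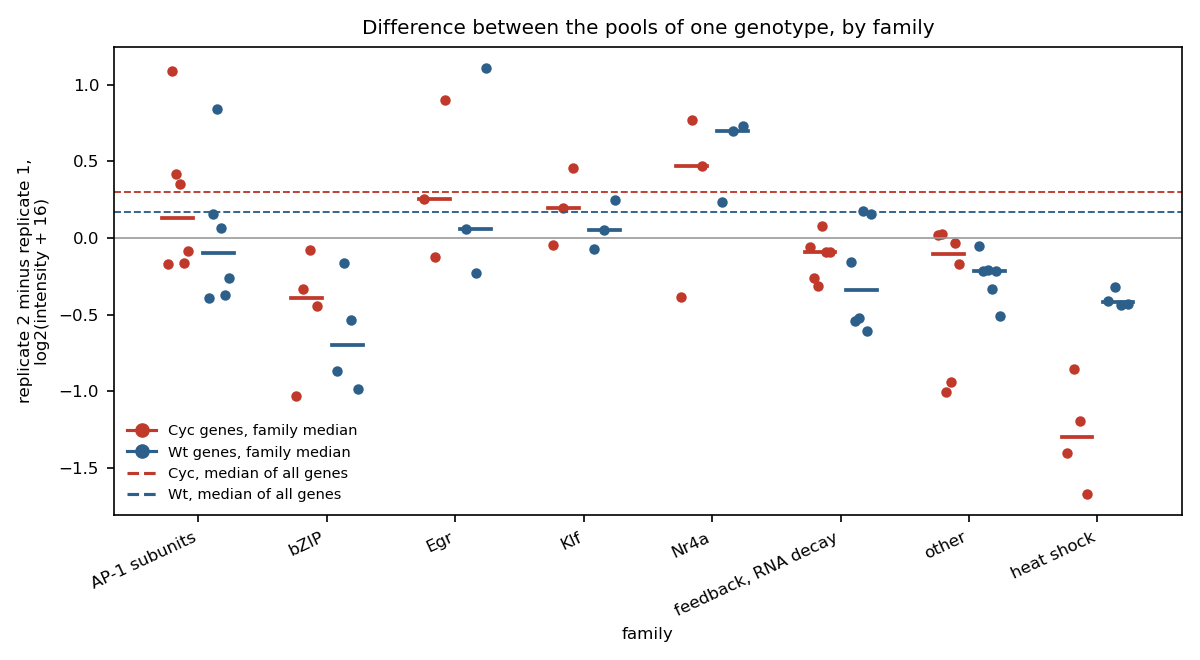
Difference of log2(intensity + 16) between the pools of replicate 2 and replicate 1 in Cyc (red) and Wt (blue) cells, with 1 point per gene, a bar for the family median and dashed lines for the medians of all genes (0.30 in Cyc, 0.17 in Wt). Heat shock genes have the lowest family median in Cyc (-1.30). In Wt the bZIP factors have it (-0.70, against -0.42 for heat shock). Nr4a genes lie mostly above the lines.

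Cyc and Wt were compared gene by gene in the same way. The Cyc pools lay entirely above the Wt pools at 8 of the 35 genes (Cebpb, Cebpd, Egr2, Socs3, Zfp36, Ppp1r15a, Ier3 and Myc), 22.9% against 18.5% of all genes. They lay below at 2 genes (Klf4 and Nr4a1), 5.71% against 7.48% of all genes. Within replicate 1 the median difference was -0.02 over the 35 genes and -0.04 over all genes, and within replicate 2 it was 0.07 and 0.07. The sign was the same at all tested probe sets in 10 of the 14 genes that had several. The family medians were 0.38 for bZIP, 0.16 for feedback, 0.13 for AP-1 and 0.11 for further early genes, -0.01 for Klf (0.01 after scaling to 1 median), -0.03 for Egr, -0.34 for Nr4a and -0.55 for heat shock genes.

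**Figure D5:**
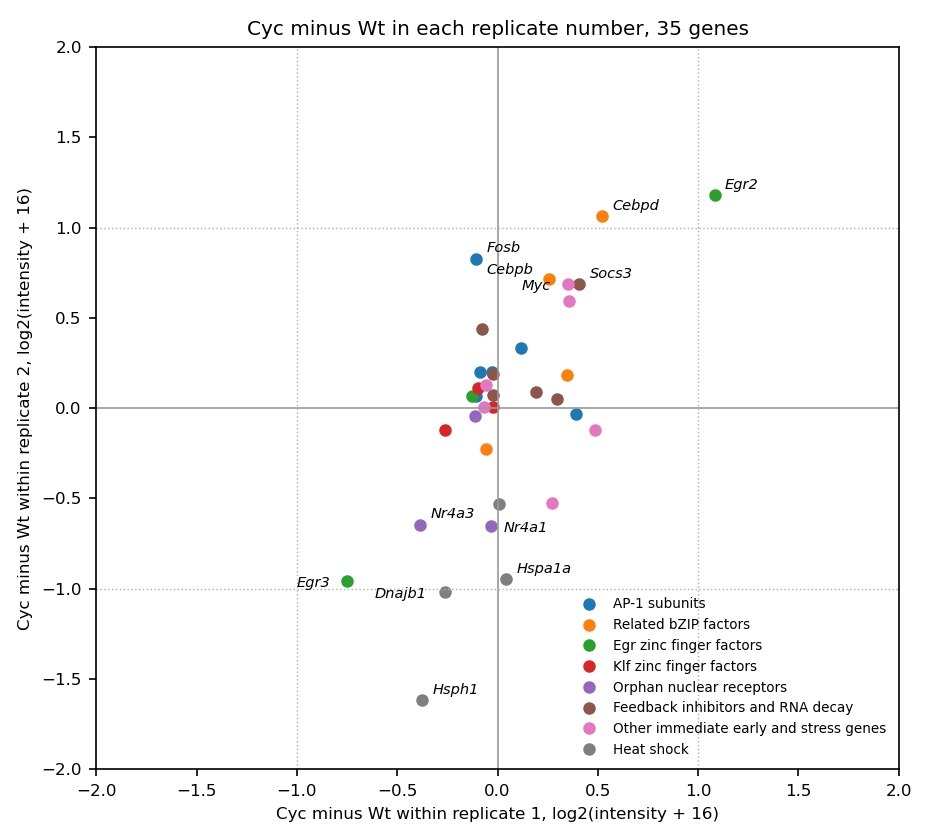
Difference Cyc minus Wt of log2(intensity + 16) within replicate 1 (x axis) and within replicate 2 (y axis), with 1 point per gene coloured by family and dotted lines at 2-fold. Egr2 is past 2-fold in both, and Hsph1 and Dnajb1 are past 2-fold lower in replicate 2 alone.

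Beyond the 35 genes, a list of 36 other immediate early and feedback genes had 33 tested members, of which none was called in Cyc against Wt and 1 had an unadjusted p under 0.05 (limma). In replicate 2 against 1 the phosphatase gene Dusp4 and the NF-κB cofactor gene Nfkbiz were higher and the cytokine gene Il6 lower. Il6 read 1235 (replicate 1) and 374.1 (replicate 2) in Cyc against 487.2 and 159.4 in Wt cells. It was higher in Cyc within each number, by 1.31 and 1.15 on the log2 scale, and was called higher in Cyc with the replicate number as a block. Dusp4 read 37.1 and 130.1 in Cyc against 29.0 and 56.9 in Wt cells, close to background in replicate 1. Nfkbiz read 1109 and 2904 in Cyc against 1448 and 2546 in Wt cells.

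Of 29 kinases and factors upstream of these genes 20 were tested. None was called in Cyc against Wt or had an unadjusted p under 0.05 there (limma), and in replicate 2 the JNK1 gene Mapk8 and the factor gene Mef2c were higher and none lower. Mapk8 read 105.6 and 409.8 in Cyc against 148.9 and 496.0 in Wt cells. Mef2c read 794 and 1806 in Cyc against 845.5 and 1826 in Wt cells. Both pools of replicate 2 lay above both of replicate 1 at 17 of these 20 genes, in a comparison where 48.9% of all genes did so.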

How the data were processed

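The deposited table holds probe set intensities on a linear scale, normalized by the authors in Resolver, from RNA amplified by in vitro transcription and hybridized to Affymetrix mouse arrays. Background correction and summary method are not given in the sources used here. Some intensities are below 0. Of 45037 probe sets 34945 have 1 gene symbol, 932 several and 9160 none in the probe annotation, and genes were read from the first kind alone. The 64 control probe sets were set aside.

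Values were raised to 0 where negative and analysed as log2(intensity + 16). Probe sets that reached 50 on 2 or more of the 4 arrays, 20680 in all, entered a limma fit (3.58.1, R 4.3.3) without a block. Tests were two-sided, with Benjamini-Hochberg adjustment over all of them. Called means at least 2-fold and an unadjusted p under 0.05, the thresholds of the study, whose Resolver error model was not run. Values in every pool were required for genes called, 2-fold in both replicate numbers, or brightest in a family, and those of further members were added after they were seen. The genes, families, lists and tests were chosen with earlier results of these data known. Fits were tested on simulated data. The alternatives were pseudocounts of 1 and 50, no filter or one at 100, quantile normalization, median scaling, blocks, an intensity trend, the methods' t-test, the mean of all probe sets and leaving out each array. The number of arrays limits the precision.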

Additional observations from a re-analysis of the deposited data

How the results depend on the processing

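The counts among the 35 genes rest on few pools. In Cyc against Wt the count of 1 became 2 (Egr2 higher, Hsph1 lower) with the replicate number as a block after quantile normalization, 0 with the mean of all probe sets and 0 to 4 when 1 array was left out. In replicate 2 against 1 the count of 0 became 1 after quantile normalization, 5 after median scaling, 2 with the genotype as a block, 1 with an intensity trend and 0 to 4 without 1 array. Over all genes 108 were called in Cyc against Wt, 30 by the methods' t-test and 91 to 373 without 1 array. Without the Cyc array of replicate 2 the calls were 72 higher and 258 lower, against 95 and 13. Between replicate numbers 367 were called, and 191 with a pseudocount of 50, 146 after quantile normalization (65 higher, 81 lower), 149 after median scaling (64 and 85), 140 by the t-test and 239 to 794 without 1 array. The median of the 35 genes ran from -0.052 to 0.056 in Cyc against Wt and from -0.22 to -0.059 between numbers without 1 array. After median scaling it was -0.52 between numbers, 0.12 within replicate 1 and -0.0301 within replicate 2, where the medians of all genes moved alike. The cause was not tested.

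The replicate numbers could not be taken as a pairing from the labels. The differences between the pools of a genotype correlated at 0.447 between Cyc and Wt over 20680 probe sets. With the replicate block 1 of the 35 genes was called, again Egr2 (limma, adjusted p = 0.573), and 136 genes in all.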
